A study of Homo sapiens with 96 samples.

Results

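The splicing of transcripts that encode spliceosome components other than the Sm proteins was followed in A549 cells, a human lung adenocarcinoma line, after inhibition of protein arginine methyltransferases (PRMTs). The members were the 49 genes named by a fixed list, and every alternative splicing event that carried one of their symbols was taken. They had 1177 of the 239131 listed events, in 46 of the 49 genes. No event was listed for SF3B4, SF3B5 or SNRNP35. Of these events, 35 were retained introns (RI), in 18 genes, and 1142 were exon events. Among the latter, 792 were of the skipped exon type (SE), 254 paired exons that exclude each other (MXE), 67 offered a choice of 3′ splice sites (A3SS) and 29 a choice of 5′ splice sites (A5SS). Many of them shared an exon, so that they described 765 distinct events.

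Poly(A) RNA was sequenced from 10 groups of 3 libraries. Cells received 1 µM GSK591, an inhibitor of PRMT5, for 2, 4 or 7 days, 1 µM MS023, an inhibitor of Type I PRMTs, for 2, 4 or 7 days, or both inhibitors at 1 µM each for 2 or 4 days (co-treatment). The controls received 0.01% DMSO for 4 or 7 days, and each 2-day group was compared with the 4-day DMSO libraries, so that day and treatment cannot be told apart there. The 6 comparisons at 2 and 4 days share their 3 DMSO libraries, as do the 2 comparisons at 7 days. All groups were the same unmodified line and nothing in the labels ties a library to a separate culture, so p-values measure the spread between these libraries, which may be technical. Libraries are called a, b and c in the order in which the tables hold them, and the same letter in 2 groups means no pairing.

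The spliceosome assembles anew on each intron. The U1 particle binds the 5′ splice site, SF1 and the U2AF pair mark the branch point and the 3′ splice site, and the U2 particle with its SF3A and SF3B proteins then replaces SF1 at the branch point. The U4/U6.U5 tri-snRNP joins next, and the PRP19 complex and its partners activate the assembly. PRMT5 places symmetric dimethylarginine on Sm proteins, which form the core of most of these particles, whereas Type I enzymes place asymmetric dimethylarginine on many RNA-binding proteins. Genes for splicing factors often carry introns or exons that interrupt their own reading frame.

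The percent spliced in (Ψ) is the fraction, from 0 to 1, of length-corrected reads that support the longer form, which is the unspliced intron in RI and the included exon in SE. The difference ΔΨ is Ψ(inhibitor) − Ψ(DMSO). An event was tested where no library compared had fewer than 10 reads on it and both forms were seen, and it was called at an adjusted p below 0.05 in a quasi-binomial test with Benjamini-Hochberg adjustment. Summed over the listed events, libraries held 3148825 to 5224249 counts on RI and 69193658 to 156277479 on exon events. A read counts in every event it supports, and a DMSO group is summed over the events of all tables that hold it. These sums are therefore not library depths and do not compare between groups. The epithelial genes KRT7, KRT8 and KRT18 had at least 263063 event reads in each 4-day DMSO library, EPCAM had 154 to 249 and CDH1 873 to 1008. No event read of CD3E was found, COL1A1 had 74 to 120 reads, and PTPRC, PECAM1 and ALB had no listed event. Library a of the 2-day GSK591 group stood apart. The RI counts of a pair of libraries in 1 group differed with a mean chi-square per degree of freedom of 1.88 to 3.22, except that library a differed from b by 4.16 and from c by 4.72. Calls of that group against DMSO are therefore given also without it where they change. Medians and direct comparisons between inhibitors include it.

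The member introns that passed the test were mostly higher with GSK591 and with co-treatment, and lower with MS023. After 4 days of GSK591, 14 of 33 tested member RI were called, 13 higher and 1 lower, where 38.2% of all tested RI were called, 33.9% higher and 4.32% lower. At 2 days the count was 10 of 33, 8 higher and 2 lower, with 26.4% of all RI called (24.0% higher and 2.38% lower). It was 11 without library a. At 7 days it was 10 of 32, 8 higher and 2 lower, with 27.9% of all RI called (21.8% higher and 6.10% lower). With MS023, 3 of 33 were called at 2 days (all RI 5.65%), 1 of 34 at 4 days (all RI 7.17%) and 5 of 35 at 7 days (all RI 11.4%). Each of these called member RI was lower, as were 4.21%, 5.60% and 9.49% of all RI at the 3 times, while 1.44%, 1.57% and 1.93% of all RI were higher. Co-treatment gave 11 of 31 at 2 days, 8 higher and 3 lower, where 34.7% of all RI were called (29.7% higher and 5.03% lower). It gave 17 of 32 at 4 days, 15 higher and 2 lower, where 39.7% of all RI were called (33.6% higher and 6.10% lower). The median ΔΨ of the member RI tested was 0.00687, 0.0246 and 0.0161 after 2, 4 and 7 days of GSK591, against 0.015, 0.0196 and 0.00762 over all RI. It was −0.00505, −0.00362 and −0.00602 with MS023, against −0.00316, −0.00404 and −0.00596, and 0.0032 and 0.0111 after 2 and 4 days of co-treatment, against 0.0161 and 0.0161. No test was made of a difference between the members' shares and those of all RI. Limma on the log2 odds called 0 member RI in each of the 3 MS023 comparisons, where 7, 9 and 9 had an unadjusted limma p below 0.05 at 2, 4 and 7 days. In all, 21 of the 35 member RI (60.0%), in 14 genes, were called in at least 1 comparison with DMSO, as were 53.2% of all RI.

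**Figure D1:**
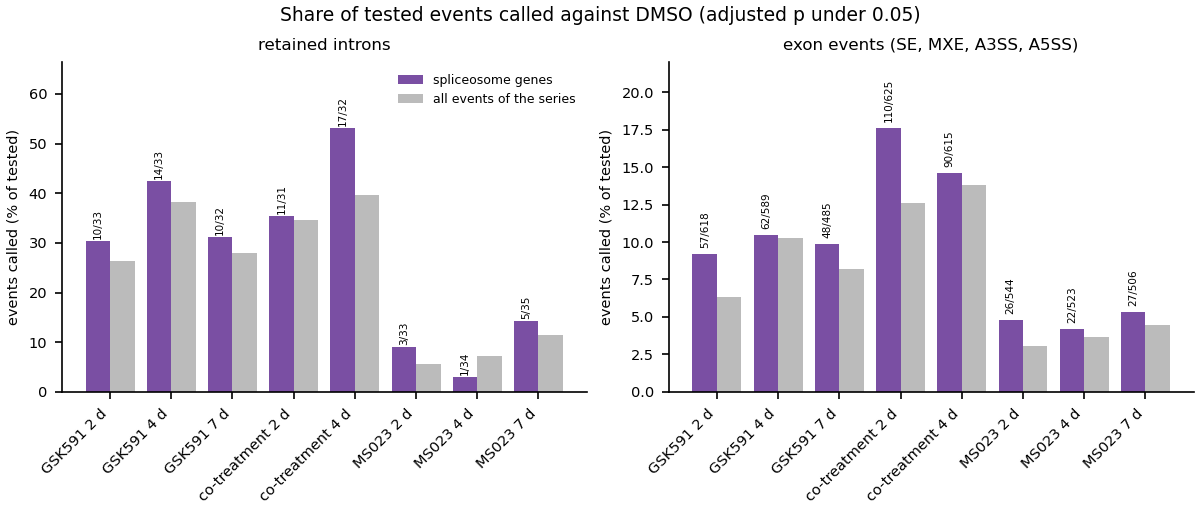
Percentage of tested events that were called against DMSO (y axis) in the 8 inhibitor groups (x axis) for retained introns (left) and exon events (right), for spliceosome genes (purple, with called and tested counts) and all events of the series (grey). In RI the spliceosome genes run from 1 of 34 with MS023 at 4 days to 17 of 32 with co-treatment at 4 days, beside 7.17% and 39.7% of all RI.

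Among the genes grouped here with factors of the branch point and the 3′ splice site, intron 9 of SUGP2, which encodes a SURP and G-patch protein, moved in opposite directions with the inhibitors. The intron is 657 bp long (chr19:19105296-19105952, hg19, minus strand) and lies between coding exons. It carries a stop codon in frame and is annotated as retained in a transcript marked for nonsense-mediated decay. Ψ was 0.39, 0.368 and 0.391 in the 4-day DMSO libraries. With GSK591 it was 0.47, 0.538 and 0.442 at 2 days (ΔΨ = 0.101, adjusted p = 0.0247) and 0.624, 0.707 and 0.635 at 4 days (ΔΨ = 0.272, adjusted p = 8.16e-07). With MS023 it was 0.215, 0.197 and 0.186 at 2 days (ΔΨ = −0.183, adjusted p = 1.39e-06) and 0.214, 0.248 and 0.177 at 4 days (ΔΨ = −0.17, adjusted p = 0.000239). Neither inhibitor group overlapped with DMSO, and the 2 groups lay on opposite sides of it. At 7 days Ψ was 0.268, 0.295 and 0.349 in DMSO, 0.536, 0.507 and 0.432 with GSK591 (ΔΨ = 0.188, adjusted p = 0.000203) and 0.155, 0.201 and 0.106 with MS023 (ΔΨ = −0.15, adjusted p = 0.000128). Co-treated libraries overlapped with DMSO, with 0.39, 0.368 and 0.31 at 2 days (ΔΨ = −0.027, adjusted p = 0.539) and 0.352, 0.415 and 0.413 at 4 days (ΔΨ = 0.0105, adjusted p = 0.838). The 2-day GSK591 call was lost without its library b and without each DMSO library in turn. Limma on the log2 odds kept 2 of its 6 calls, those of 4-day and 7-day GSK591. The splice sites are shown because this intron was called with each inhibitor alone at every time, with the intron in capitals, 3 exon and 6 intron bases at the 5′ site and 20 intron and 3 exon bases at the 3′ site.
SUGP2 intron 9, 5′ site: cgtGTACGC
SUGP2 intron 9, 3′ site: CTCTCTTTTTCACTCCCTAGggg

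U2AF1, the small U2AF subunit that reads the AG at the 3′ splice site, had a long intron 2 (3795 bp, chr21:44520630-44524424, minus strand) that was mostly spliced. Ψ was 0.0191, 0.0285 and 0.0207 in 4-day DMSO, 0.0704, 0.0699 and 0.0832 after 4 days of GSK591 (ΔΨ = 0.0517, adjusted p = 1.32e-10) and 0.108, 0.102 and 0.0914 after 4 days of co-treatment (ΔΨ = 0.0778, adjusted p = 9.66e-14). The 3 groups did not overlap. At 2 days it was 0.0138, 0.0558 and 0.0633 with GSK591 (ΔΨ = 0.0215, adjusted p = 0.114), with library a below every DMSO library and b and c above them, and without library a the difference was called (ΔΨ = 0.0367, adjusted p = 1.58e-09). Co-treatment at 2 days gave 0.0595, 0.0552 and 0.0514 (ΔΨ = 0.0326, adjusted p = 1.24e-09). MS023 gave 0.018, 0.0171 and 0.0181 at 2 days (ΔΨ = −0.00506, adjusted p = 0.0412) and 0.0205, 0.0209 and 0.0164 at 4 days (ΔΨ = −0.00355, adjusted p = 0.324). At 7 days the values were 0.0132, 0.0158 and 0.0159 in DMSO, 0.0272, 0.0336 and 0.0332 with GSK591 (ΔΨ = 0.0163, adjusted p = 1.12e-07) and 0.00829, 0.00877 and 0.00667 with MS023 (ΔΨ = −0.0071, adjusted p = 9.12e-07). This intron contains an alternative exon, described below, whose reads count towards retention, so the 2 events are not independent. The 2-day MS023 call was lost without any of its 3 libraries or DMSO library b. A second U2AF1 intron, intron 7, was called in 4 comparisons, 3 of them higher.

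SF1, the branch point binding protein, had an annotated intron of 432 bp (chr11:64532991-64533422, minus strand) at the border of coding sequence and UTR, which protein-coding transcripts hold as exon, and most reads supported the unspliced form. Ψ was 0.962, 0.947 and 0.967 in 4-day DMSO. It rose to 0.996, 0.996 and 0.993 with GSK591 at 4 days (ΔΨ = 0.0362, adjusted p = 0.000213) and 0.993, 0.998 and 0.996 with co-treatment at 4 days (ΔΨ = 0.0369, adjusted p = 0.000117). The 2-day values were 0.995, 0.989 and 0.99 with GSK591 (ΔΨ = 0.0327, adjusted p = 0.00225) and 0.993, 0.998 and 1 with co-treatment (ΔΨ = 0.0383, adjusted p = 7.2e-05). At 7 days DMSO gave 0.945, 0.96 and 0.972 and GSK591 0.99, 0.996 and 1 (ΔΨ = 0.0361, adjusted p = 0.00476). Each GSK591 and co-treated library lay above its DMSO libraries, while the 9 MS023 libraries (0.942 to 0.982) gave no call for this intron. Of the 29 tested exon events of SF1, 10 were called in at least 1 comparison with DMSO, where 15.8% of all exon events were. SF1 had a call in each of the 8 comparisons, those with MS023 included, with absolute ΔΨ up to 0.308. None of its exon events was among the leading ones described below.

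Among the U1-associated factors, PRPF40B, LUC7L and PRPF39 had called introns. PRPF40B, related to a yeast U1 protein that bridges the splice sites, had an intron 20 of 207 bp (chr12:50036156-50036362, plus strand), which overlaps FMNL3 on the other strand. Ψ was 0.33, 0.326 and 0.284 in 4-day DMSO, 0.534, 0.521 and 0.534 with GSK591 (ΔΨ = 0.216, adjusted p = 0.00112) and 0.162, 0.231 and 0.227 with MS023 (ΔΨ = −0.107, adjusted p = 0.105). At 2 days neither inhibitor passed, with 0.439, 0.341 and 0.509 for GSK591 and 0.249, 0.199 and 0.24 for MS023. At 7 days both did, from 0.202, 0.176 and 0.253 in DMSO to 0.532, 0.554 and 0.466 with GSK591 (ΔΨ = 0.307, adjusted p = 1.75e-05) and 0.0657, 0.139 and 0.145 with MS023 (ΔΨ = −0.0937, adjusted p = 0.0191). The MS023 call at 7 days was lost without its library a or DMSO library c. Co-treatment gave 0.318, 0.414 and 0.361 at 2 days (ΔΨ = 0.0512, adjusted p = 0.438) and 0.445, 0.44 and 0.535 at 4 days (ΔΨ = 0.16, adjusted p = 0.00672). The lowest library had 71 reads. Its intron 7 was also higher in 4 comparisons.

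LUC7L, a U1 component related to a yeast factor that helps choose 5′ splice sites, had a 996 bp intron (chr16:277336-278331, minus strand) that directly follows an alternative 70-nt exon described below. Both events use the 5′ splice site of that exon, so they are not independent. Ψ of the intron was 0.555, 0.733 and 0.553 in 4-day DMSO, 0.821, 0.858 and 0.83 after 4 days of GSK591 (ΔΨ = 0.223, adjusted p = 0.00111) and 0.789, 0.955 and 0.902 after 4 days of co-treatment (ΔΨ = 0.269, adjusted p = 0.000989). At 2 days it was 0.734, 0.799 and 0.826 with GSK591 (ΔΨ = 0.173, adjusted p = 0.0346), a call that was lost without its library b or c or DMSO library a or c, and 0.728, 0.819 and 0.722 with co-treatment (ΔΨ = 0.142, adjusted p = 0.0782). The 7-day libraries gave 0.761, 0.79 and 0.759 in DMSO, 0.891, 0.925 and 0.805 with GSK591 (ΔΨ = 0.104, adjusted p = 0.0845) and 0.678, 0.757 and 0.555 with MS023. MS023 libraries of 2 and 4 days ran from 0.491 to 0.732. Intron 9 of LUC7L was higher in 5 comparisons.

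PRPF39, a U1-associated protein that acts in alternative 5′ splice site choice, went the other way. Its intron 3 (658 bp, chr14:45565432-45566089, plus strand) contains annotated alternative exons of its own gene, whose reads count towards retention. Ψ was 0.365, 0.409 and 0.362 in 4-day DMSO and fell to 0.194, 0.172 and 0.192 (ΔΨ = −0.193, adjusted p = 3.52e-05) and 0.247, 0.195 and 0.266 (ΔΨ = −0.143, adjusted p = 0.0007) with 2 and 4 days of GSK591. Co-treatment gave 0.16, 0.136 and 0.16 at 2 days (ΔΨ = −0.227, adjusted p = 1.07e-07) and 0.193, 0.161 and 0.165 at 4 days (ΔΨ = −0.206, adjusted p = 4.63e-07). None of these 12 libraries reached the lowest DMSO library. MS023 gave 0.356, 0.267 and 0.296 at 2 days (ΔΨ = −0.0721, adjusted p = 0.322) and 0.231, 0.327 and 0.332 at 4 days (ΔΨ = −0.0819, adjusted p = 0.217). At 7 days the libraries held 0.32, 0.26 and 0.226 in DMSO, 0.217, 0.204 and 0.225 with GSK591 (ΔΨ = −0.0528, adjusted p = 0.16) and 0.531, 0.213 and 0.336 with MS023, and neither passed.

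Of the tri-snRNP genes, PRPF4B, a kinase that phosphorylates tri-snRNP proteins, had 3 called introns. The leading one, 512 bp in its 3′ UTR (chr6:4061935-4062446, plus strand), had a Ψ of 0.715, 0.699 and 0.773 in 4-day DMSO. Ψ rose to 0.944, 0.921 and 0.974 (ΔΨ = 0.217, adjusted p = 0.00114) and 0.901, 1 and 0.926 (ΔΨ = 0.214, adjusted p = 0.000904) with 2 and 4 days of GSK591, and to 0.977, 0.978 and 0.967 (ΔΨ = 0.245, adjusted p = 2.09e-05) and 0.99, 0.955 and 0.976 (ΔΨ = 0.245, adjusted p = 1.85e-05) with co-treatment. The 7-day DMSO libraries were already at 0.976, 0.958 and 0.827, above the 4-day DMSO libraries (ΔΨ = 0.191, adjusted p = 0.0435), and 7-day GSK591 gave 0.822, 1 and 0.901 (ΔΨ = −0.0124, adjusted p = 0.959). MS023 gave no call, with 0.737 to 0.875 over its 9 libraries. A different PRPF4B intron, intron 12, was lower in 4 comparisons, and it contains an annotated exon of its own gene, whose reads count towards retention.

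USP39, a ubiquitin protease homologue needed to add the tri-snRNP, had an intron of 163 bp in its 3′ UTR (chr2:85875977-85876139, plus strand) whose unspliced form was the usual one. Ψ was 0.875, 0.902 and 0.874 in 4-day DMSO, 0.912, 0.941 and 0.951 with GSK591 at 4 days (ΔΨ = 0.051, adjusted p = 0.0105) and 0.944, 0.923 and 0.921 with co-treatment at 4 days (ΔΨ = 0.0454, adjusted p = 0.0158). The 2-day groups gave no call, with 0.934, 0.906 and 0.928 for GSK591, 0.839, 0.857 and 0.827 for MS023 and 0.887, 0.873 and 0.882 for co-treatment. At 7 days DMSO gave 0.89, 0.841 and 0.839, GSK591 0.933, 0.953 and 0.901 (ΔΨ = 0.0719, adjusted p = 0.00681) and MS023 0.782, 0.799 and 0.789 (ΔΨ = −0.0671, adjusted p = 0.0288), with the inhibitors on either side of DMSO. Of these 4 calls, the 7-day GSK591 one held when any single library was left out. The 4-day GSK591 call was lost without its library c and the 4-day co-treatment call without its library a or DMSO library a or c. The 7-day MS023 call was lost without any of its 3 libraries or DMSO library a.

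EFTUD2, the GTPase of the U5 particle, had a nearly always spliced intron 17 (386 bp, chr17:42937414-42937799, minus strand). Its Ψ was 0.00775, 0.00455 and 0.00367 in 4-day DMSO and 0.0159, 0.0126 and 0.0136 after 4 days of GSK591 (ΔΨ = 0.00872, adjusted p = 0.00113). It was 0.00806, 0.0141 and 0.014 after 2 days of GSK591 (ΔΨ = 0.00674, adjusted p = 0.0169), and 0.0167, 0.00673 and 0.0131 and 0.0154, 0.00882 and 0.015 after 2 and 4 days of co-treatment (adjusted p = 0.012 and 0.00205). The 2-day co-treated libraries overlapped with DMSO, and both 2-day calls were lost when DMSO library c, among others, was left out. At 7 days 0.00767, 0.00327 and 0.00607 in DMSO and 0.00652, 0.0051 and 0.00831 with GSK591 overlapped, with no call (ΔΨ = 0.000976, adjusted p = 0.741). MS023 libraries held 0.00112 to 0.00477 with no call. PRPF31, a U4/U6 protein, moved in a different direction in its 104 bp intron 10 (chr19:54631576-54631679, plus strand). There Ψ fell from 0.0519, 0.0301 and 0.0595 in 7-day DMSO to 0.0144, 0.0269 and 0.0284 with 7-day GSK591 (ΔΨ = −0.024, adjusted p = 0.0121). No other comparison with DMSO was called for it, and the call was lost without GSK591 library a and without DMSO library a or c. PRPF31 intron 12 was higher in 1 comparison.

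Among the U2 proteins, SF3B1, which clamps the branch point helix, had a largely unspliced segment of 1476 bp between coding exons (chr2:198283676-198285151, minus strand) that is not an intron of the reference transcript. Ψ was 0.808, 0.946 and 0.856 in 4-day DMSO and 1 in each of the 3 co-treated libraries at 4 days (ΔΨ = 0.13, adjusted p = 0.00942), which had no spliced read. At 7 days it was 0.684, 0.791 and 0.631 in DMSO, 0.944, 0.861 and 0.843 with GSK591 (ΔΨ = 0.181, adjusted p = 0.0272) and 0.83, 0.911 and 0.898 with MS023 (ΔΨ = 0.178, adjusted p = 0.129). The GSK591 call was lost without its library a or DMSO library a or c. These values rested on few spliced reads. The lowest 4-day DMSO library had 263 reads in all, and each of the 3 had at least 259 unspliced ones. In 7-day GSK591 these numbers were 478 and 470. Intron 6 of SF3A2, 79 bp, ranged from 0.0174 to 0.0634 over all libraries and was called once, lower with 7-day GSK591 (ΔΨ = −0.0226, adjusted p = 0.0401), a call lost without any of 5 libraries. Among the isomerases of the catalytic spliceosome, intron 19 of PPIL2 (323 bp, chr22:22049360-22049682, plus strand) had a Ψ of 0.0888, 0.0369 and 0.0712 in 4-day DMSO and 0.181, 0.135 and 0.131 after 4 days of GSK591 (ΔΨ = 0.0834, adjusted p = 0.00345). Co-treatment gave 0.167, 0.199 and 0.175 at 2 days (ΔΨ = 0.115, adjusted p = 0.000155) and 0.223, 0.196 and 0.226 at 4 days (ΔΨ = 0.149, adjusted p = 1.19e-05). The 9 MS023 libraries (0.0464 to 0.105) gave no call, and 7-day GSK591 gave 0.17, 0.138 and 0.0942 beside 0.0885, 0.07 and 0.102 in DMSO (ΔΨ = 0.0471, adjusted p = 0.0914). An overlapping PPIL2 RI (chr22:22049256-22049682), which contains intron 19 and was mostly unspliced, went the other way. It was called in 1 comparison, lower with 2-day co-treatment. Intron 4 of PPIE ranged from 0.00543 to 0.0382 and was called once, with 4-day co-treatment (ΔΨ = 0.0118, adjusted p = 0.0268), where the groups overlapped and the call was lost without any of 4 libraries. With limma on the log2 odds in place of the quasi-binomial test, 28 of the 48 calls of these 14 leading introns remained.

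**Figure D2:**
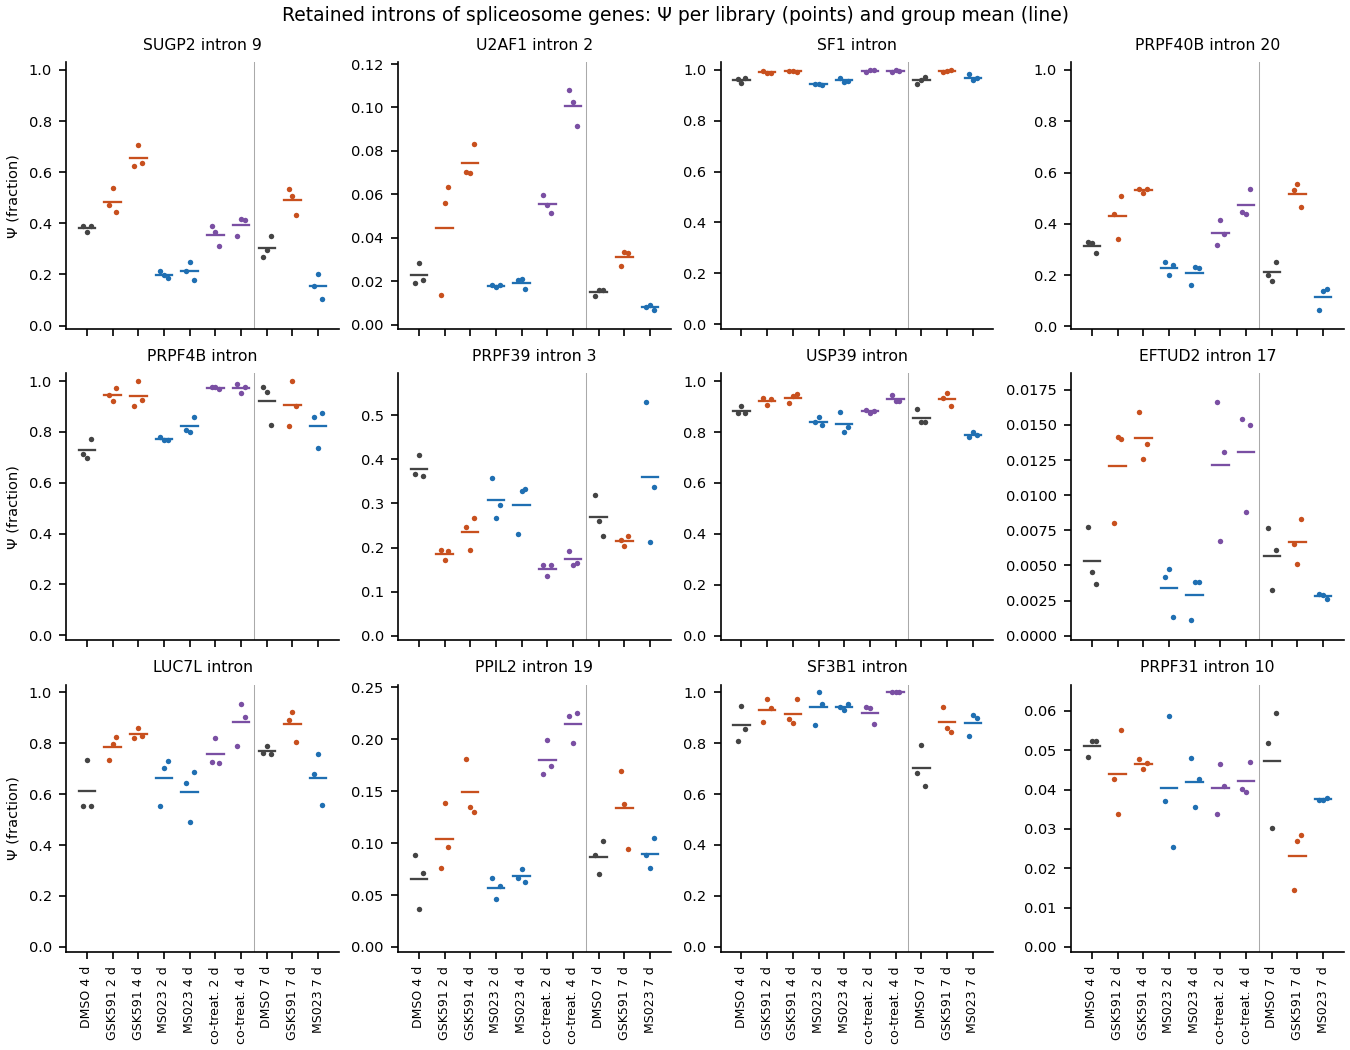
Ψ of 12 retained introns (y axis, fraction of the unspliced form, each panel with its own scale) in the 10 groups (x axis), with 1 point per library and a line at the mean of 3. SUGP2 intron 9 and PRPF40B intron 20 lie above DMSO with GSK591 and below it with MS023, while PRPF39 intron 3 lies below DMSO with 2 and 4 days of GSK591.

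Length and base composition of the member introns were not used in the choice of genes. Their median length was 432 bp (range 67 to 3795) against 260 bp over all 4928 RI, and their median GC content was 49.5% against 57.4%. G was the third base of the intron in 9 of the 35 (25.7%), against 46.5% of all RI, and C made up 29.3% of the bases in the tract before the 3′ splice site, against 36.8%. These are descriptions of 35 introns from 18 genes, several of which overlap and share an end, and no test was made of a difference from all RI.

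Exon events of the members were called in all 8 comparisons with DMSO. With GSK591 the count was 57 of 618 at 2 days, 13 higher and 44 lower, where 6.33% of all exon events were called (1.68% higher and 4.65% lower). It was 38 without library a. At 4 days of GSK591 it was 62 of 589 tested events, 18 higher and 44 lower, where 10.3% of all exon events were called (3.57% higher and 6.73% lower). After 7 days it was 48 of 485 with GSK591, 26 higher and 22 lower, where 8.19% of all exon events were called (3.55% higher and 4.63% lower). MS023 gave 26 of 544 at 2 days, 8 higher and 18 lower, where 3.08% of all exon events were called (0.918% higher and 2.16% lower). It gave 22 of 523 at 4 days, 8 higher and 14 lower, where 3.63% of all exon events were called (1.30% higher and 2.32% lower). The 7-day MS023 libraries gave 27 of 506 events, 14 higher and 13 lower, where 4.49% of all exon events were called (2.02% higher and 2.47% lower). Co-treatment had the highest count, 110 of 625 at 2 days, 24 higher and 86 lower, where 12.6% of all exon events were called (3.24% higher and 9.39% lower). Its 4-day count was 90 of 615 events, 32 higher and 58 lower, where 13.8% of all exon events were called (4.79% higher and 9.03% lower). Calls of lower inclusion outnumbered those of higher inclusion except with either inhibitor at 7 days. The median ΔΨ over the tested member exon events was within 0.0022 of 0 in each comparison with DMSO. Limma on the log2 odds called fewer, from 0 to 34 per comparison, and in simulated SE counts the quasi-binomial test made more false calls than its threshold allows. Of the 80 calls of the 18 leading exon events described next, 15 remained with limma, in U2AF1, CWC25, PRPF4B, PRPF3, PRPF40B, PRPF6 and PRPF39, and 60 had an unadjusted limma p below 0.05.

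In the tri-snRNP, TXNL4A, a small U5 protein, included an exon of 149 nt (chr18:77746602-77746750, minus strand) more often in every inhibitor group. The exon lies in the first intron of the reference transcript, is annotated in transcripts marked for nonsense-mediated decay, and carries a stop codon in frame 9 bases from its start. Ψ was 0.136, 0.116 and 0.156 in 4-day DMSO and 0.156, 0.142 and 0.161 in 7-day DMSO. GSK591 gave 0.292, 0.261 and 0.293 at 2 days (ΔΨ = 0.146, adjusted p = 6.23e-12), 0.365, 0.323 and 0.304 at 4 days (ΔΨ = 0.195, adjusted p = 1.36e-15) and 0.284, 0.297 and 0.303 at 7 days (ΔΨ = 0.142, adjusted p = 3.54e-31). MS023 moved it the same way, to 0.197, 0.216 and 0.202 at 2 days (ΔΨ = 0.0689, adjusted p = 5.41e-08), 0.186, 0.257 and 0.209 at 4 days (ΔΨ = 0.0813, adjusted p = 3.13e-08) and 0.238, 0.231 and 0.229 at 7 days (ΔΨ = 0.0799, adjusted p = 1.01e-11). No library of a single-inhibitor group overlapped with its DMSO group. Co-treatment gave 0.409, 0.353 and 0.285 at 2 days (ΔΨ = 0.213, adjusted p = 1.27e-14) and 0.376, 0.376 and 0.422 at 4 days (ΔΨ = 0.255, adjusted p = 1.72e-16). Compared directly, Ψ was higher with GSK591 than with MS023 at 2 days (ΔΨ = 0.0772, adjusted p = 5.69e-06), 4 days (ΔΨ = 0.113, adjusted p = 1.9e-08) and 7 days (ΔΨ = 0.0618, adjusted p = 0.000358). Of its 8 calls, limma on the log2 odds kept 0. The exon is printed because it was the only leading exon event that was called in all 8 comparisons, with the stop codon in capitals.
TXNL4A 149-nt exon: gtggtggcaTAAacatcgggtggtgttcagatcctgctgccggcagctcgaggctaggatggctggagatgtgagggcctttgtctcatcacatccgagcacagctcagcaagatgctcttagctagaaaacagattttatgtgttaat

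Other tri-snRNP exons were called with fewer treatments. PRPF6, which bridges U5 and U4/U6, used exon 11 (219 nt, chr20:62642638-62642856, plus strand) in nearly all molecules of DMSO, with 0.993 to 1 over 6 libraries. It was skipped more often with MS023, where Ψ was 0.894 ± 0.024 (SD, n = 3) at 2 days (ΔΨ = −0.103, adjusted p = 3.01e-20), 0.872 ± 0.0119 at 4 days (ΔΨ = −0.126, adjusted p = 1.42e-18) and 0.911 ± 0.0206 at 7 days (ΔΨ = −0.084, adjusted p = 2.91e-13). GSK591 libraries stayed at 0.997 to 1. Co-treatment lay between, at 0.957 ± 0.0106 at 2 days (ΔΨ = −0.0407, adjusted p = 3.52e-06) and 0.988 ± 0.00643 at 4 days (ΔΨ = −0.0102, adjusted p = 0.0634). Of the 4 calls of PRPF6 exon 11, limma on the log2 odds kept 1, that of 2-day co-treatment, and none of those with MS023. PRPF3, a U4/U6 protein, skipped its exon 14 (84 nt, chr1:150318884-150318967) most with co-treatment, at 0.887 ± 0.0151 at 2 days (ΔΨ = −0.103, adjusted p = 2.01e-09) and 0.906 ± 0.0197 at 4 days (ΔΨ = −0.0847, adjusted p = 1.57e-07), against 0.991 ± 0.0114 in 4-day DMSO. GSK591 alone gave 0.956 ± 0.00862 at 4 days (ΔΨ = −0.0343, adjusted p = 0.0026), a call lost without its library a or c or DMSO library a or c, and co-treatment was lower than GSK591 at 2 days (ΔΨ = −0.0853, adjusted p = 9.06e-11) and 4 days (ΔΨ = −0.0504, adjusted p = 0.000471). In PRPF4B, a longer 5′ splice site in the 3′ UTR (127 nt, chr6:4062868-4062994) had a Ψ of 0.37, 0.506 and 0.32 in 4-day DMSO. It was 0.669, 0.78 and 0.796 with GSK591 at 2 days (ΔΨ = 0.35, adjusted p = 0.00107), 1, 0.916 and 0.91 at 4 days (ΔΨ = 0.544, adjusted p = 1.17e-05) and 0.672, 0.856 and 0.821 at 7 days (ΔΨ = 0.247, adjusted p = 0.028; DMSO 0.581, 0.53 and 0.497). Co-treatment gave 0.921, 0.881 and 0.911 and 0.946, 0.89 and 0.969 at 2 and 4 days (adjusted p = 1.28e-05 and 2.76e-06). This event had few reads, 24 in its lowest library, and MS023 libraries spread from 0.273 to 0.707 with no call. The 7-day GSK591 call was lost without its library b or c or without DMSO library b or c.

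Among the 3′ splice site factors, U2AF1, met above, switched between exclusive exons of 67 nt each. Its exon 3 (chr21:44520563-44520629, minus strand) is the one of the reference transcript, and the other exon (chr21:44521476-44521542) lies upstream of it, inside intron 2. They share 44 of 67 bases and differ at 23, which are in capitals here, and they are printed because the switch replaces a stretch of the same length in the protein.
U2AF1 exon 3: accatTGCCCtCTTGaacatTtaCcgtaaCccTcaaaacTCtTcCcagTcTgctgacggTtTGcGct
U2AF1 upstream exon: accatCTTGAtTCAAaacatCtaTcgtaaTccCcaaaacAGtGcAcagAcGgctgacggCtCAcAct

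Ψ of the pair is the share of the upstream exon, which a separate skipped exon event of that exon bears out in direction (0.121, 0.149 and 0.138 in 4-day DMSO, 0.273, 0.292 and 0.267 with 4-day GSK591). In the skipped exon event of exon 3, Ψ was 1, 0.999 and 1 in 4-day DMSO and 0.998, 0.984 and 0.996 with 4-day GSK591. That event weighs inclusion of exon 3 only against its skipping, so these values do not tell how many molecules carry exon 3. Levels from the pair and from the single exon events therefore differ. In the exclusive pair Ψ of the upstream exon was 0.222, 0.243 and 0.258 in 4-day DMSO. It was 0.429, 0.452 and 0.492 after 2 days of GSK591 (ΔΨ = 0.216, adjusted p = 3.42e-05) and 0.509, 0.528 and 0.513 after 4 days (ΔΨ = 0.276, adjusted p = 3.42e-14). Co-treatment gave 0.474, 0.451 and 0.481 at 2 days (ΔΨ = 0.227, adjusted p = 5.32e-13) and 0.606, 0.572 and 0.561 at 4 days (ΔΨ = 0.338, adjusted p = 1.78e-14). At 7 days it was 0.293, 0.319 and 0.251 in DMSO, 0.475, 0.46 and 0.464 with GSK591 (ΔΨ = 0.179, adjusted p = 4.61e-07) and 0.253, 0.244 and 0.233 with MS023 (ΔΨ = −0.0441, adjusted p = 0.0604). With MS023 it was 0.185, 0.211 and 0.187 at 2 days (ΔΨ = −0.047, adjusted p = 0.0437) and 0.236, 0.249 and 0.218 at 4 days (ΔΨ = −0.00722, adjusted p = 0.879). The 2-day MS023 call was lost without any of its 3 libraries or without DMSO library b or c.

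U2AF2, the large subunit that binds the polypyrimidine tract, used a 5′ splice site 12 nt further downstream at the end of exon 10 (chr19:56180536-56180547, plus strand) more often. The 12 bases are shown in capitals between the end of the shorter exon and the start of the intron.
U2AF2 12-nt extension: ctgGTGAGCCCCCCGgcacgt
The extension keeps the reading frame, and it begins with GT, whereas the intron after it begins with GC. Ψ of the longer form was 0.179, 0.19 and 0.188 in 4-day DMSO and 0.211, 0.206 and 0.171 in 7-day DMSO. GSK591 raised it to 0.3, 0.302 and 0.301 (ΔΨ = 0.116, adjusted p = 2.13e-12), 0.334, 0.337 and 0.345 (ΔΨ = 0.153, adjusted p = 3.61e-13) and 0.335, 0.346 and 0.349 (ΔΨ = 0.147, adjusted p = 3.4e-23) at 2, 4 and 7 days. Co-treatment gave 0.322, 0.3 and 0.273 at 2 days (ΔΨ = 0.113, adjusted p = 1.54e-10) and 0.354, 0.387 and 0.363 at 4 days (ΔΨ = 0.182, adjusted p = 3.8e-15). None of these libraries overlapped with DMSO, and at least 2276 reads stood behind each value. MS023 libraries held 0.155 to 0.184, and none of their 3 comparisons passed. Of the 5 calls, limma kept 0.

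SUGP2 had a 214-nt exon in the 3′ UTR region (chr19:19102149-19102362), downstream of intron 9, that went opposite to the intron. Its Ψ was 0.597 ± 0.00515 (SD, n = 3) in 4-day DMSO, 0.277 ± 0.0502 with GSK591 at 2 days (ΔΨ = −0.32, adjusted p = 1.73e-05) and 0.312 ± 0.0278 at 4 days (ΔΨ = −0.285, adjusted p = 1.46e-05). MS023 gave 0.763 ± 0.0642 (ΔΨ = 0.166, adjusted p = 0.0914) and 0.78 ± 0.0844 (ΔΨ = 0.183, adjusted p = 0.0542) at these times. Co-treatment gave 0.591 ± 0.143 (ΔΨ = −0.00609, adjusted p = 0.807) and 0.563 ± 0.0661 (ΔΨ = −0.0342, adjusted p = 0.539). The event is not listed in the table of 7-day GSK591. Its 7-day MS023 call (ΔΨ = 0.214, adjusted p = 0.0126) was lost whichever single library was left out, and the 2 DMSO groups differed (ΔΨ = −0.183, adjusted p = 0.035).

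Among the U1-associated genes, LUC7L included its 70-nt exon (chr16:278332-278401, minus strand) in opposite directions with the inhibitors. The exon lies in the first intron of the reference transcript, its length is no multiple of 3, and it is annotated in protein-coding transcripts and in others marked for nonsense-mediated decay. It is printed whole because it and SUGP2 intron 9 were the leading events called in both directions at all 3 times, and its 5′ splice site follows with the intron in capitals.
LUC7L 70-nt exon: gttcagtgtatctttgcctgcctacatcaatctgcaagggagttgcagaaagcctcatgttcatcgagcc
LUC7L 70-nt exon, 5′ site: gccGTGAGT
Ψ was 0.104, 0.0822 and 0.103 in 4-day DMSO. GSK591 gave 0.204, 0.281 and 0.19 at 2 days (ΔΨ = 0.129, adjusted p = 1.71e-05) and 0.47, 0.261 and 0.359 at 4 days (ΔΨ = 0.267, adjusted p = 1e-10). MS023 gave 0.0342, 0.0232 and 0.0166 at 2 days (ΔΨ = −0.0717, adjusted p = 3.59e-09) and 0.0267, 0.0686 and 0.0235 at 4 days (ΔΨ = −0.0568, adjusted p = 0.000257). At 7 days DMSO gave 0.0846, 0.138 and 0.0833, GSK591 0.459, 0.458 and 0.367 (ΔΨ = 0.326, adjusted p = 4.19e-27) and MS023 0.0421, 0.0332 and 0.028 (ΔΨ = −0.0675, adjusted p = 1.28e-06). Every GSK591 library lay above, and every MS023 library below, all libraries of its DMSO group. Co-treated libraries were lower than DMSO at 2 days, with 0.0732, 0.0493 and 0.0595 (ΔΨ = −0.0357, adjusted p = 0.0282), and near it at 4 days, with 0.123, 0.0883 and 0.111 (ΔΨ = 0.011, adjusted p = 0.578). The 4-day MS023 call was lost without its library a or c, and the 2-day co-treatment call without its library b or c or DMSO library a or c. Limma kept 0 of its 7 calls.

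PRPF40B skipped exon 7 (111 nt, chr12:50026797-50026907, plus strand) with GSK591. Ψ fell from 0.799, 0.854 and 0.839 in 4-day DMSO to 0.401, 0.501 and 0.487 at 2 days (ΔΨ = −0.368, adjusted p = 2.52e-06) and 0.376, 0.269 and 0.332 at 4 days (ΔΨ = −0.505, adjusted p = 1.86e-10). At 7 days it was 0.824, 0.842 and 0.884 in DMSO and 0.534, 0.424 and 0.383 with GSK591 (ΔΨ = −0.403, adjusted p = 5.32e-07). Co-treatment gave 0.561, 0.443 and 0.35 at 2 days (ΔΨ = −0.379, adjusted p = 2e-08) and 0.373, 0.368 and 0.372 at 4 days (ΔΨ = −0.459, adjusted p = 1.41e-10), and MS023 libraries held 0.693 to 0.897 with no call. The 7-day GSK591 libraries had as few as 24 reads. PRPF39 has an exon of 100 nt (chr14:45579097-45579196, plus strand) in intron 8, annotated in transcripts marked for nonsense-mediated decay, with a stop codon in frame 84 bases from its start (in capitals).
PRPF39 100-nt exon: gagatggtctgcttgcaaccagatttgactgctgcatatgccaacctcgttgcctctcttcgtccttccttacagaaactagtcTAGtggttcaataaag
Like Ψ of intron 3 in the same gene at 2 and 4 days, inclusion of this 100-nt exon fell with GSK591. Ψ was 0.354, 0.389 and 0.337 in 4-day DMSO, 0.124, 0.158 and 0.1 at 2 days (ΔΨ = −0.233, adjusted p = 1.07e-07) and 0.171, 0.178 and 0.119 at 4 days (ΔΨ = −0.204, adjusted p = 3.09e-07). At 7 days it was 0.279, 0.277 and 0.332 in DMSO and 0.126, 0.176 and 0.113 with GSK591 (ΔΨ = −0.157, adjusted p = 3e-06). Co-treatment gave 0.109, 0.141 and 0.106 (ΔΨ = −0.241, adjusted p = 8.81e-10) and 0.095, 0.0835 and 0.111 (ΔΨ = −0.264, adjusted p = 4.35e-11) at 2 and 4 days. MS023 libraries ran from 0.282 to 0.442 with no call. LUC7L3 had a 66-nt exon called once, with 4-day MS023 (0.722 ± 0.184 against 0.459 ± 0.012 in DMSO, SD, n = 3; ΔΨ = 0.263, adjusted p = 0.00906). That call was lost without any of 5 libraries, and the event had 3 to 24 reads per library with 2 or 4 days of GSK591, where it was not tested.

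**Figure D3:**
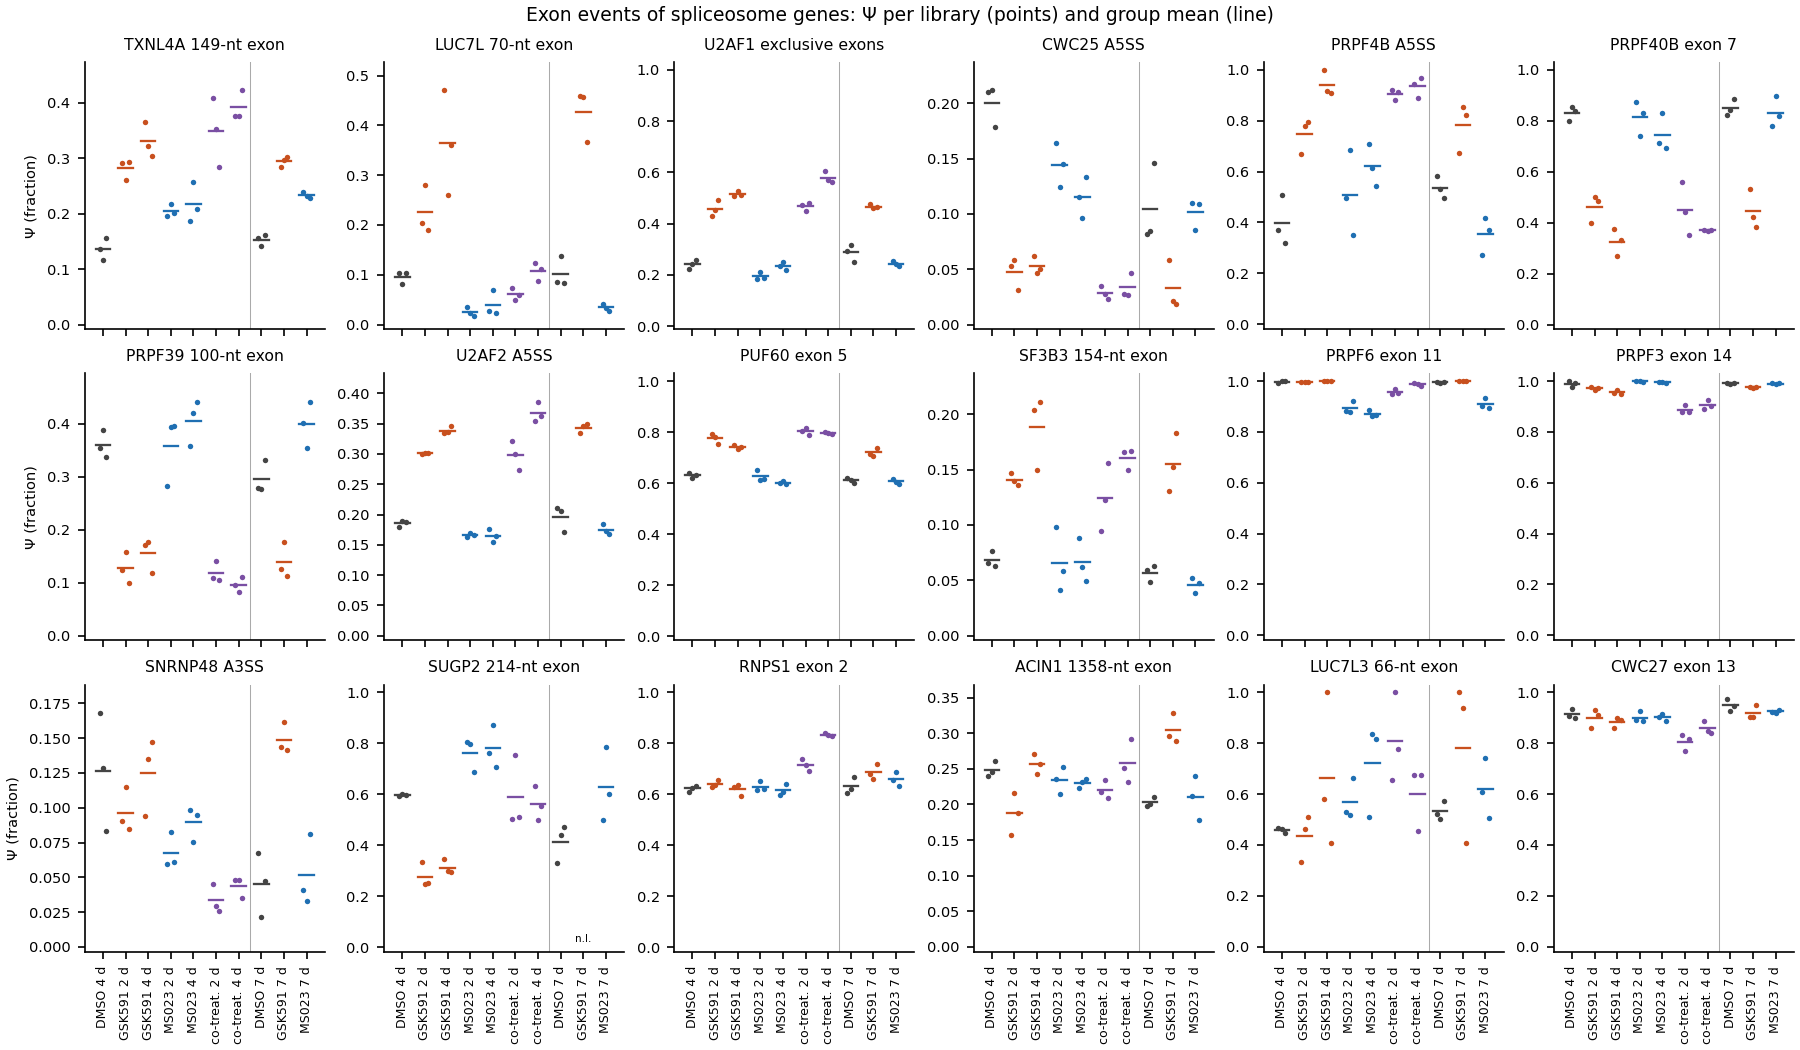
Ψ of the 18 leading exon events (y axis, fraction of the longer or included form, each panel with its own scale) in the 10 groups (x axis), with 1 point per library and a line at the mean of 3; n.l. marks a group in which the event is not listed. The TXNL4A exon lies above DMSO in every inhibitor group, the LUC7L exon above with GSK591 and below with MS023, and PRPF6 exon 11 below with MS023.

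The remaining leading exons spread over the other roles. PUF60, a poly(U)-binding relative of U2AF2, included exon 5 (51 nt, chr8:144902836-144902886, minus strand) more often with GSK591. Ψ was 0.641, 0.618 and 0.633 in 4-day DMSO, 0.792, 0.782 and 0.752 at 2 days (ΔΨ = 0.144, adjusted p = 3.5e-13) and 0.751, 0.735 and 0.74 at 4 days (ΔΨ = 0.111, adjusted p = 2.36e-12). At 7 days it was 0.619, 0.613 and 0.6 in DMSO and 0.716, 0.708 and 0.738 with GSK591 (ΔΨ = 0.11, adjusted p = 2.6e-17). Co-treated libraries reached 0.805, 0.817 and 0.789 at 2 days (ΔΨ = 0.173, adjusted p = 4.14e-19) and 0.802, 0.796 and 0.792 at 4 days (ΔΨ = 0.166, adjusted p = 7.16e-17). All 15 of these libraries lay above DMSO, and MS023 gave 0.596 to 0.654 with no call. Limma kept 0 of the 5 calls.

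In the PRP19 and CWC group, CWC25, needed for the first catalytic step, used the longer of a pair of 5′ splice sites (192 nt, chr17:36966529-36966720, minus strand) less. Ψ was 0.21, 0.212 and 0.178 in 4-day DMSO, 0.0533, 0.0583 and 0.0316 with GSK591 at 2 days (ΔΨ = −0.152, adjusted p = 9.19e-08) and 0.0617, 0.0468 and 0.0498 at 4 days (ΔΨ = −0.147, adjusted p = 3.41e-07). MS023 gave 0.164, 0.124 and 0.145 (ΔΨ = −0.0557, adjusted p = 0.145) and 0.115, 0.0965 and 0.133 (ΔΨ = −0.085, adjusted p = 0.00606), and co-treatment 0.0348, 0.0278 and 0.0228 (ΔΨ = −0.172, adjusted p = 8.5e-10) and 0.0275, 0.0265 and 0.0469 (ΔΨ = −0.166, adjusted p = 2.74e-09). The 7-day DMSO libraries were lower than the 4-day ones, at 0.0817, 0.0848 and 0.146 (ΔΨ = −0.0958, adjusted p = 0.00883), and 7-day GSK591 gave 0.0587, 0.0214 and 0.0186 (ΔΨ = −0.0712, adjusted p = 0.000288). With 7-day MS023 it was 0.11, 0.0853 and 0.109, which overlapped with DMSO and was not called (ΔΨ = −0.00258, adjusted p = 0.904). The 4-day MS023 call was lost without its library a or b or DMSO library b, and the 7-day GSK591 call without its library b. No GSK591 or co-treated library reached the lowest library of its DMSO group. CWC27, an isomerase-like protein of the activated spliceosome, had exon 13 called once, lower with 2-day co-treatment (ΔΨ = −0.107, adjusted p = 0.00172), a call lost without co-treated library b.

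SF3B3, a scaffold of the SF3B complex, included a 154-nt exon of its 5′ UTR (chr16:70558767-70558920, plus strand) more often with GSK591. Ψ was 0.0653, 0.0769 and 0.0633 in 4-day DMSO, 0.146, 0.14 and 0.136 at 2 days (ΔΨ = 0.072, adjusted p = 1.36e-06) and 0.203, 0.149 and 0.211 at 4 days (ΔΨ = 0.12, adjusted p = 3.8e-11). It was 0.0595, 0.0483 and 0.0627 in 7-day DMSO and 0.131, 0.152 and 0.183 with GSK591 (ΔΨ = 0.0986, adjusted p = 4.1e-17). Co-treatment gave 0.0944, 0.123 and 0.156 (ΔΨ = 0.0558, adjusted p = 0.00017, lost without its library c) and 0.166, 0.15 and 0.167 (ΔΨ = 0.0922, adjusted p = 2.39e-07). MS023 libraries held 0.0383 to 0.0977 and gave no call. Limma kept 0 of the 5 calls.

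RNPS1 and ACIN1 form complexes at the periphery of the exon junction. RNPS1 exon 2 (188 nt, chr16:2314574-2314761, minus strand) rose with co-treatment, from 0.623 ± 0.0137 (SD, n = 3) in 4-day DMSO to 0.715 ± 0.0231 at 2 days (ΔΨ = 0.0914, adjusted p = 5.1e-06) and 0.834 ± 0.00606 at 4 days (ΔΨ = 0.211, adjusted p = 1.61e-15). Neither inhibitor alone was called at those times, with 0.62 ± 0.0218 for GSK591 and 0.616 ± 0.0235 for MS023 at 4 days. Co-treatment exceeded GSK591 at 2 days (ΔΨ = 0.0747, adjusted p = 0.000587) and 4 days (ΔΨ = 0.214, adjusted p = 5.27e-34). The 7-day GSK591 call (ΔΨ = 0.0545, adjusted p = 0.00291) was lost without its library a or c or DMSO library a or b. ACIN1 had a 1358-nt exon (chr14:23536523-23537880, minus strand), annotated in a transcript marked for nonsense-mediated decay, that was lower with 2-day GSK591 (0.188 ± 0.0296 against 0.249 ± 0.0106; ΔΨ = −0.0612, adjusted p = 0.00023) and higher with 7-day GSK591 (0.304 ± 0.0213 against 0.203 ± 0.00673; ΔΨ = 0.101, adjusted p = 8.67e-19). After 4 days of GSK591 it was 0.257 ± 0.014, overlapping with DMSO and not called (ΔΨ = 0.00816, adjusted p = 0.546). The 2 DMSO groups differed as well (ΔΨ = −0.0453, adjusted p = 0.000944), and the 2-day GSK591 call was lost without its library c. With 2-day co-treatment it was 0.22 ± 0.0128 (ΔΨ = −0.0284, adjusted p = 0.0325), a call lost without co-treated library a or c or DMSO library b or c. In the minor spliceosome, SNRNP48, a U11/U12 protein, used a 3′ splice site that adds 1663 nt (chr6:7599906-7601568, plus strand) less with co-treatment, at 0.0335 ± 0.0104 at 2 days (ΔΨ = −0.0933, adjusted p = 4.73e-08) and 0.0437 ± 0.00768 at 4 days (ΔΨ = −0.083, adjusted p = 6.69e-06), against 0.127 ± 0.0425 in DMSO. With 7-day GSK591 it was higher, 0.149 ± 0.0114 against 0.0456 ± 0.0232 in DMSO (ΔΨ = 0.103, adjusted p = 7.57e-05). Its DMSO groups differed too (ΔΨ = −0.0811, adjusted p = 0.000219), and a 2-day MS023 call (ΔΨ = −0.059, adjusted p = 0.0228) was lost without any of 5 libraries.

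**Figure D4:**
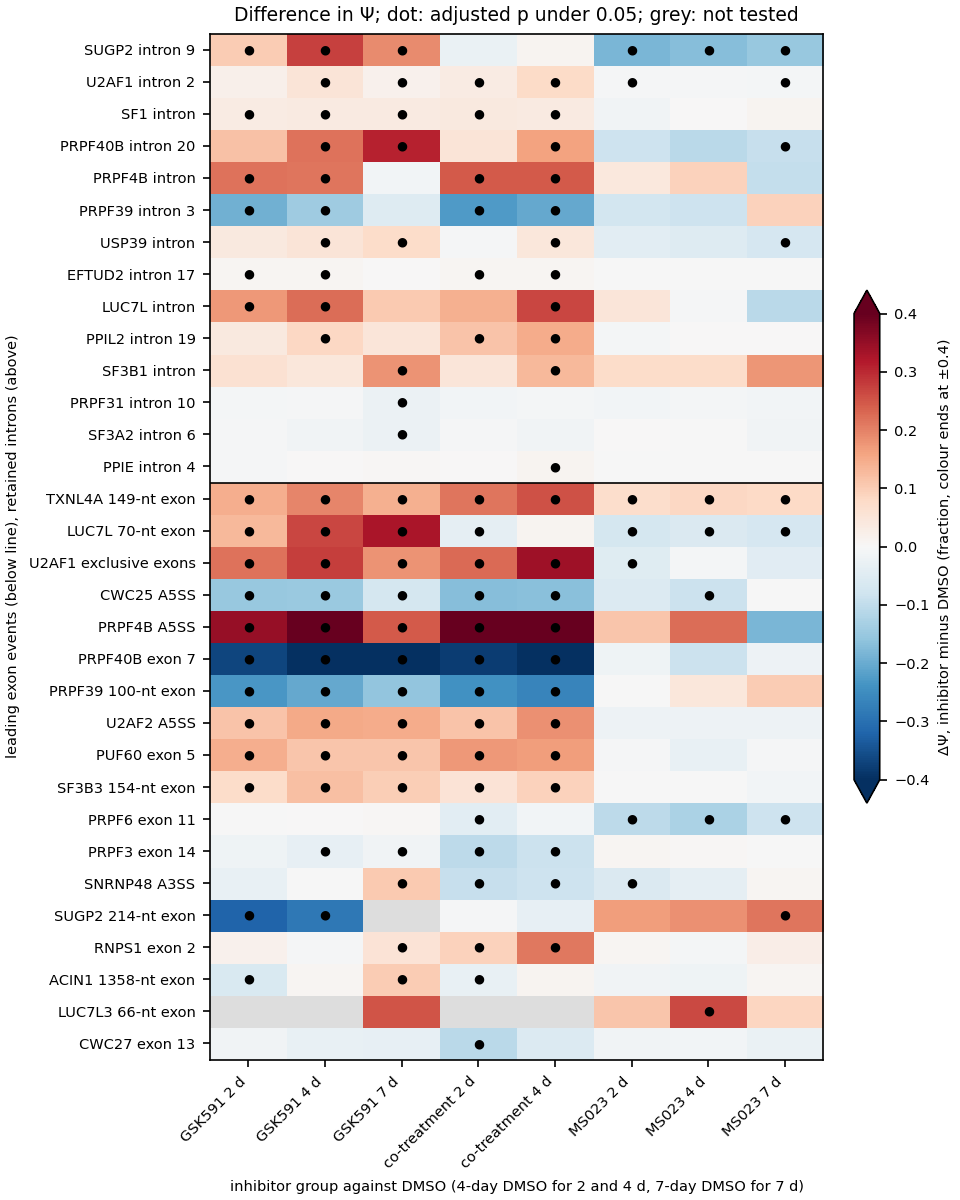
Difference in Ψ between each inhibitor group and its DMSO group (columns) for the 14 leading retained introns and 18 leading exon events (rows). Red is higher and blue lower than DMSO, dots mark an adjusted p below 0.05, grey marks events not tested, and colour ends at ±0.4, which PRPF4B and PRPF40B exceed. TXNL4A is red in all 8 columns, and SUGP2 intron 9 is red with GSK591, blue with MS023 and near 0 with co-treatment.

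Set against each other on the same day, the inhibitors differed in member introns mostly through higher retention with GSK591. Of the tested member RI, 13 of 33 differed between GSK591 and MS023 at 2 days (all RI 35.0%), 17 of 33 at 4 days (all RI 45.7%) and 17 of 31 at 7 days (all RI 39.9%). Higher values with GSK591 made up 12, 17 and 15 of these calls, beside 31.4%, 40.9% and 32.9% of all RI. Exon events differed in 58 of 425 (10.6% of all), 66 of 400 (15.8%) and 54 of 359 (13.4%). SUGP2 intron 9 differed by 0.284 (adjusted p = 1.31e-07), 0.442 (adjusted p = 8.77e-14) and 0.338 (adjusted p = 5.76e-14) at 2, 4 and 7 days. For PRPF40B intron 20 the difference was 0.201, 0.323 and 0.401 (adjusted p = 0.00437, 4.37e-07 and 8.95e-12). The LUC7L exon differed by 0.2, 0.324 and 0.393 (adjusted p = 1.67e-19, 2.37e-26 and 1.16e-55).

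Co-treatment and GSK591 alone differed at 1 of 30 member introns at 2 days (3.33%, all RI 3.62%) and 6 of 32 at 4 days (18.8%, all RI 9.17%). At 4 days SUGP2 intron 9 was lower with co-treatment (ΔΨ = −0.262, adjusted p = 1.1e-06), as was PRPF39 intron 3 (ΔΨ = −0.0628, adjusted p = 0.0211), while U2AF1 intron 2 was higher (ΔΨ = 0.0261, adjusted p = 0.000207). Of the exon events, 37 of 459 differed at 2 days (4.44% of all) and 39 of 432 at 4 days (6.41%). The LUC7L exon was lower with co-treatment at 2 days (ΔΨ = −0.164, adjusted p = 1.46e-15) and 4 days (ΔΨ = −0.256, adjusted p = 1.56e-16), PRPF6 exon 11 likewise (ΔΨ = −0.0406, adjusted p = 3.29e-08 and ΔΨ = −0.0125, adjusted p = 0.00275), and the SUGP2 214-nt exon was higher (ΔΨ = 0.314, adjusted p = 0.000148 and ΔΨ = 0.251, adjusted p = 0.000952). Limma on the log2 odds called 0 member events at either time, where 50 and 60 had an unadjusted p below 0.05. For PUF60 exon 5 the difference was 0.0282 at 2 days (adjusted p = 0.113) and 0.0547 at 4 days (adjusted p = 1.12e-05).

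The 2 DMSO groups differed at 3 of 33 member RI (all RI 8.89%) and 45 of 453 member exon events (all exon events 6.96%). U2AF1 intron 2 was lower at 7 days (ΔΨ = −0.00779, adjusted p = 0.00568) and the upstream U2AF1 exon higher (ΔΨ = 0.0461, adjusted p = 0.0273). Whether the effect of GSK591 on the log odds of inclusion changed between 4 and 7 days was tested for RI as an interaction. It was called for 1 of 32 member RI (all RI 6.23%), U2AF1 intron 2. The call was lost without any 1 of 6 of the 12 libraries, and with limma. For MS023 0 of 34 were called by the quasi-binomial test (all RI 0.295%), where 4 had an unadjusted p below 0.05 and limma also called 0.

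By role, with 4-day co-treatment the branch point and 3′ splice site group had 22 of 114 tested exon events called, the tri-snRNP group 25 of 206, the U2 group 7 of 76, the PRP19 and CWC group 10 of 55, the U1-associated group 16 of 103, the minor spliceosome group 3 of 12 and the exon junction group 7 of 49, where 13.8% of all exon events were called. In RI the same comparison gave 3 of 5, 6 of 11, 1 of 2, 2 of 6, 5 of 7, 0 of 1 and, in the last group, no tested RI, where 39.7% of all RI were called. Events of a gene share reads, so these counts are not of independent items. Of the 46 genes with events, 36 (78.3%) had at least 1 call against DMSO, 14 of them in an RI and 34 in an exon event, where 68.9% of all genes with a tested event had a call. A gene with more tested events has more chances of a call, and the members had 23.8 tested events per gene against 17.1 over all genes. The 10 genes that were tested and gave no call were SF3A1, PRPF4, PRPF38A, SNRNP27, CDC5L, CWC22, RNPC3, ZRSR2, SART1 and SUGP1. Several called genes moved little, and the largest called difference was 0.0282 in absolute value for PRPF8, the core of the catalytic spliceosome, 0.0096 for SNRNP200, its unwinding helicase, and 0.00793 for SF3B2. A list of 69 other spliceosome genes outside the members, fixed by role, had 7 of 18 RI called after 4 days of GSK591, 6 of them higher, and 45 of 498 exon events (all RI 38.2%, all exon events 10.3%). With 4-day MS023 it had 0 of 18 RI by the quasi-binomial test and 17 of 424 exon events (all 7.17% and 3.63%), and with 4-day co-treatment 8 of 19 RI and 51 of 480 exon events (all 39.7% and 13.8%).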

How the data were processed

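Splicing was read from 8 event tables of poly(A) RNA-seq of A549 cells, 1 table for each inhibitor group beside its DMSO group, covering 30 of the 96 samples of the series. The remaining 66 samples were not analysed here. Per the labels and the methods of the study, the authors trimmed the reads with Trim Galore 0.6.5, aligned them to hg19 with STAR 2.4.2a and counted with rMATS, which took both junction reads and reads inside the alternative segment. The deposited values used were counts of reads for the inclusion and the skipping form of each event in each library, with the effective length of each form. The deposited inclusion level, a fraction from 0 to 1, was recomputed from these counts, and the 2 differed by at most 0.0005. The tables also hold p-values, adjusted p-values and mean differences of the comparisons made by the authors, which were not used. The counts of a DMSO group were the same in every table that holds it, with 0 of 693643 differing.

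Each cell holds 3 libraries without replicate numbers, named a, b and c by position. Ψ was the length-corrected share of the longer form. For each comparison a quasi-binomial model was fitted in R 4.3.3 across all events of a type with at least 10 reads in every library, the dispersion was moderated with limma 3.58.1 and held at 1 or above, and p-values from the two-sided F test were adjusted by the Benjamini-Hochberg method over all events of the type. A call is an adjusted p below 0.05. The direct comparisons used the events that both tables list. The interactions used 4 groups and tested the effect on the log odds of inclusion. The method was tested on simulated data, where the share of false calls in SE counts lay above the threshold. The alternatives were 20 reads or 1 read as the minimum, limma on log2 odds with 0.5 added to each count, a dispersion not held at 1, adjustment over all event types, a minimum absolute ΔΨ of 0.05, no length correction, a dispersion trend on the reads of the rarer form (chosen after seeing the data) and leaving out each library.

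Members, gene lists and tests were chosen with earlier results of these data known. The genes named with values are the leading RI and the leading exon event of each member gene. Events with the same intron, alternative exon or splice-site pair were first merged, keeping that with most reads. The leading event is then the called event with the largest absolute ΔΨ among those with at least 20 reads in every library of that comparison (exon events with an absolute ΔΨ of at least 0.1). Called events outside this choice reached larger absolute ΔΨ in some genes, such as 0.379 in SUGP2 and 0.439 in LUC7L3. Values per library are given for the 12 RI and 10 exon events called most often, and for some others by their mean and SD. PRPF8, SNRNP200 and SF3B2 were named after their values were seen. Coordinates are 1-based on hg19, and sequences and annotation come from the GRCh37 (hg19) genome with GENCODE gene models lifted to that build. The tables give event reads only, so gene expression was not analysed here, and reads are not independent molecules.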

Additional observations from a re-analysis of the deposited data

Results flagged for a closer look

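For U2AF1 intron 2, the response to GSK591 was called as different between 4 and 7 days. The ΔΨ at 7 days minus that at 4 days was −0.0354. The test was made on another scale, the log odds of inclusion counts without length correction. It gave an adjusted p of 0.02 (quasi-binomial interaction over 12 libraries with Benjamini-Hochberg adjustment over all RI). All 3 GSK591 libraries lay above their DMSO libraries at both times. The call was lost without 7-day GSK591 library a, 4-day GSK591 library c, 7-day DMSO library b or c, or 4-day DMSO library a or c, and leaving out 1 of the 12 libraries gave adjusted p from 0.00106 to 0.0788. The difference was also below the minimum absolute ΔΨ of 0.05 tried as an alternative. The 4-day and 7-day DMSO libraries themselves differed for this intron, and limma on the log2 odds did not call the interaction (adjusted p = 0.281). The intron contains the alternative upstream exon, whose reads count as retention, and the part of that exon in the difference was not tested.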

How the results depend on the processing

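Settings were changed 1 at a time. Counts are given in the order GSK591, MS023 and co-treatment at 2 days, the same at 4 days, and GSK591 and MS023 at 7 days, each against DMSO. A minimum of 20 reads or of 1 read, and a dispersion free to fall below 1, kept all 24 counts within 1.5 times the reported ones. Limma on the log2 odds called 0, 1, 34, 7, 0, 33, 1 and 2 exon events, with 87 and 46 at an unadjusted p below 0.05 where it called 0. For RI it called 6 with 2-day GSK591, 6 with 7-day GSK591 and 0 in each MS023 comparison. In the direct comparisons limma called 16, 30 and 23 events between the inhibitors, 0 between co-treatment and GSK591 at either time (50 and 60 at an unadjusted p below 0.05) and 8 between the DMSO groups. A minimum absolute ΔΨ of 0.05 left 34, 9, 50, 31, 14, 47, 28 and 11 exon events, and for RI 1 with 2-day MS023, 5 and 9 with 2-day and 4-day co-treatment, 6 with 7-day GSK591 and 3 with 7-day MS023. It left 46, 51 and 39 events between the inhibitors, and 16 and 28 between co-treatment and GSK591. Adjustment over all event types together left 6 RI with 2-day GSK591, and this setting was not run for the interactions, which were fitted for RI alone. A dispersion trend on the reads of the rarer form, chosen after seeing the data, gave 17, 14, 30 and 17 exon events with 2-day MS023, 4-day MS023, 7-day GSK591 and 7-day MS023, 2 RI with 4-day MS023 and 24 events between co-treatment and GSK591 at 2 days. The GSK591 interaction was called for 0 RI by limma (4 at an unadjusted p below 0.05), 2 with the trend and 0 with the minimum ΔΨ. The cause of these differences was not tested.

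Leaving out 1 library at a time gave 6 to 11, 2 to 3, 10 to 11, 13 to 15, 1 to 2, 14 to 16, 6 to 11 and 3 to 5 RI, and 37 to 44, 9 to 23, 64 to 89, 37 to 48, 9 to 16, 56 to 72, 25 to 35 and 10 to 17 exon events, in the order above. The count of RI with 2-day GSK591 fell to 6 without its library b or DMSO library b or c, that with 7-day GSK591 to 6 without its library a, and with 7-day MS023 it fell to 3 without MS023 library a or b or DMSO library c. It rose to 2 with 4-day MS023 without its library b or DMSO library b. Exon counts moved by over 1.5 times without any treated library for MS023 at 2 and 4 days and co-treatment at 2 days, without DMSO library c for 2-day GSK591, without library a or c for 4-day GSK591, without DMSO library a for 4-day MS023, without library a for 4-day co-treatment, without any library other than GSK591 a for 7-day GSK591, and without any library for 7-day MS023. Between the inhibitors the ranges were 48 to 61, 61 to 72 and 39 to 54 events (lowest without 7-day MS023 library c, 43 without b). Between co-treatment and GSK591 they were 19 to 33 (19, 20 and 23 without co-treated library a, b and c) and 33 to 37, and between the DMSO groups 24 to 40 (24 and 25 without 7-day library a and b). The GSK591 interaction was called for 0 to 2 RI and the MS023 interaction for 0 to 1, the latter without 4-day DMSO library b. Fewer libraries leave fewer degrees of freedom.

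Of the 128 calls of the leading events, 99 held without any single library, 121 held with adjustment over all event types, 120 with the dispersion trend and 43 with limma, and 0 changed sign under any of the settings. No paired analysis was possible because the columns carry no replicate numbers. Depth limits the rarer events: LUC7L3, PRPF40B exon 7 and the PRPF4B 5′ splice site had 24 reads or fewer in their lowest library. Mostly unspliced introns, such as those of SF3B1 and the leading one of PRPF4B, rested on few spliced reads.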
